A study of Mus musculus with 3 samples.

Results

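The replication-dependent histone genes encode the linker histone H1 and the core histones H2A, H2B, H3 and H4 that package newly made DNA. In the deposited files they are the genes whose symbols begin with Hist1h, Hist2h, Hist3h or Hist4h. This rule found 67 of the 31053 genes listed: 6 of the H1 class, 18 H2A, 18 H2B, 12 H3 and 13 H4 genes. Their unique molecular identifiers (UMIs, which count captured transcripts) were summed by gene, cell lineage and library. Cells with at least 3 of 7 cell cycle transcripts detected (Mki67, Top2a, Ube2c, Birc5, Pclaf, Rrm2 and Cdk1) are called cycling here and were compared with the other cells of their lineage. No histone gene entered that choice of cells.

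The cells came from the stromal and vascular fraction of mouse inguinal fat, after removal of dead cells and of red blood cells, in 3 droplet-based single-cell libraries. The Pdgfra-Cre library has the genotype Pdgfra-Cre; TERT fl/fl, in which a Cre recombinase driven from a receptor gene of mesenchymal progenitors acts on floxed telomerase alleles. The Pdgfrb-Cre library is Pdgfrb-Cre; TERT fl/fl, whose driver gene is also used by perivascular cells, and the control library is TERT +/+. The title of the control sample also carries the unexplained abbreviation PBS, and the labels used here give no age and no number of animals per library. With 1 library per genotype, genotype and library cannot be told apart and no test was made between genotypes.

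Most metazoan messenger RNAs end in a poly(A) tail, whereas the transcripts of these genes are normally cut just after a short stem-loop and have no tail. The stem-loop is bound by SLBP, which guides processing and protects the RNA during DNA synthesis, and the transcripts are degraded when replication stops. Some of the genes can also be read on to a polyadenylation signal further downstream, giving a tailed form that is known from differentiated cells. The libraries were primed on poly(A), so a histone gene is counted here through tailed RNA or through priming inside the transcript.

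The histone stem-loop, a palindromic stem around a loop of T bases whose variable stem positions were left free in the search, lay after the stop codon in the GENCODE M21 transcripts (build GRCm38) of 44 of the 67 histone genes (65.7%). Searched anywhere in a transcript, the motif was found in 89 of 55450 genes in all (0.160%), these histone genes included. In the 44 histone genes it began 21 to 58 bases after the stop codon, with a median of 31 bases. The windows of 30 bases that follow, with the stem-loop in capitals and read 5′ to 3′ on the strand of the gene, are shown because each is the site that divides the genes by transcript end later on, and because they cover each form found.

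Hist1h1c: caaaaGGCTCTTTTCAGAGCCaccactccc
Hist1h2ab: acaaaGGCTCTTTTCAGAGCCacccacatc
Hist3h2a: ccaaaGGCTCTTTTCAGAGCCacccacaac
Hist1h3c: aaaaaGGCTCTTTTAAGAGCCacctaagat
Hist2h2ac: aaaaaGGCTCTTTTTAGAGCCaccaaatct
Hist1h4d: ccaaaGGCCCTTTTCAGGGCCactaccttc
Hist1h4i: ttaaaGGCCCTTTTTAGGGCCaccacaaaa
Hist1h4b: caaaaGGTCCTTTTCAGGACCactcactga

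These windows lie at chr13:23739507-23739536 (plus strand) for Hist1h1c, chr13:23751567-23751596 (plus) for Hist1h2ab and chr11:58955167-58955196 (plus) for Hist3h2a. They lie at chr13:23745038-23745067 (minus) for Hist1h3c and chr3:96220409-96220438 (minus) for Hist2h2ac. Those of the H4 genes are at chr13:23581945-23581974 (plus) for Hist1h4d, chr13:22040957-22040986 (minus) for Hist1h4i and chr13:23757361-23757390 (plus) for Hist1h4b. The form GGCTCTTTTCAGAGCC was the most common, in 26 genes of the H1, H2A, H2B and H3 classes, and 6 genes of the H1, H2B and H3 classes had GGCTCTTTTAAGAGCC. All 11 H4 genes with a stem-loop had another stem: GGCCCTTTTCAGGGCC in 7, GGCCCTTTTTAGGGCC in 2 and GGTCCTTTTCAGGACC in 2. Hist2h2ac alone had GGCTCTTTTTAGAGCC.

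The annotated transcripts differ in how far they continue beyond this site. In 26 genes the transcript ended within 200 bases of the stem-loop, in 18 genes it ran at least 200 bases past it, and in 23 genes the annotated transcript held no stem-loop. In 13 of those 23 genes the annotation simply stops at the stop codon, so nothing about their ends can be read from it. Hist1h2ab continued for 11 bases after the stem-loop, Hist1h3c for 74, Hist1h1c for 840, Hist3h2a for 1643 and Hist4h4 for 2445 bases. The polyadenylation signal AATAAA followed the stem-loop in 10 of the 18 long transcripts and in 3 of the 26 short ones.

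The 67 genes sit in dense clusters. There were 54 on chromosome 13, in a block of 31 genes at chr13:23531050-23934851 and a block of 23 genes at chr13:21715763-22043676. A further 10 lay at chr3:96219865-96270132, 2 at chr11:58948920-58956830 and 1, Hist4h4, at chr6:136801553-136804415 on the minus strand. The larger block on chromosome 13 held 14220 of the histone UMIs and the smaller one 4278, against 1693 on chromosome 3, 1296 on chromosome 11 and 380 from Hist4h4. An exon structure with a single exon was annotated in 62 of the 67 genes.

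The libraries held 14438471 UMIs in 2310 barcodes (Pdgfra-Cre), 30826733 in 4355 (Pdgfrb-Cre) and 13352288 in 4124 (TERT +/+), of which 1409, 3903 and 2668 cells were kept. The median kept cell had 7506 UMIs in the Pdgfra-Cre library, 5690 in the Pdgfrb-Cre library and 3322 in the TERT +/+ library. Tert itself had 7 UMIs in the Pdgfra-Cre, 10 in the Pdgfrb-Cre and 14 in the TERT +/+ library, too few to check the deletion, and a tag at the end of the transcript need not lie in the deleted part. Each cell was given a lineage from its own marker genes, and the name means only that its RNA is like that lineage. Stromal-like cells numbered 616, 570 and 245 in the Pdgfra-Cre, Pdgfrb-Cre and TERT +/+ libraries, beside many T/NK-like and B-like cells. Pairs of libraries shared at most 2 kept cell barcodes.

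Cycling cells made up 9 of the kept cells in the Pdgfra-Cre library (0.639%, 95% Clopper-Pearson interval 0.292 to 1.21), 89 in the Pdgfrb-Cre library (2.28%, 1.84 to 2.80) and 132 in the TERT +/+ library (4.95%, 4.16 to 5.84). In the Pdgfrb-Cre library 59 of them were T/NK-like, and in the TERT +/+ library 26 were T/NK-like, 25 B-like, 29 stromal-like and 16 endothelial-like. Cycling cells were deep in the Pdgfrb-Cre library, with a median of 20240 UMIs against 5582 in the other cells, and shallow in the TERT +/+ library, with 2682 against 3350 in the other cells. All levels are therefore given as CPM, the UMIs of a gene or list per 1000000 UMIs of the same cell group. The 95% intervals printed after CPM values, shares and ratios reflect counting error alone.

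Histone genes took up far more of the RNA in cycling cells than in other cells of the same lineage, in every lineage and library that had at least 5 cycling cells. Summed histone CPM in cycling T/NK-like cells was 8001 (7358 to 8686) in the Pdgfra-Cre library, 2935 (2847 to 3025) in the Pdgfrb-Cre library and 1573 (1419 to 1738) in the TERT +/+ library. The other T/NK-like cells of those libraries had 289, 223 and 318 CPM. The ratio of cycling to other cells was thus 27.7 (24.6 to 31.2) in the Pdgfra-Cre, 13.2 (12.5 to 13.8) in the Pdgfrb-Cre and 4.94 (4.39 to 5.55) in the TERT +/+ library. With the lineage taken from clusters instead of each cell's own markers it was 7.34 in the Pdgfrb-Cre and 2.27 in the TERT +/+ library. That setting left out most of these cycling cells: 38 of 59 (Pdgfrb-Cre) and 20 of 26 (TERT +/+) lay in a cluster named as plasma cells.

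In B-like cells the ratio was 11.0 (10.0 to 12.1) in the Pdgfrb-Cre library, with 3493 CPM in cycling and 317 in other cells. It was 11.2 (10.4 to 12.2) in the TERT +/+ library, with 4539 CPM in cycling and 404 in other cells. Cycling myeloid-like cells had 2796 CPM against 181 in the others (Pdgfrb-Cre) and 2268 against 335 (TERT +/+). Only the TERT +/+ library had enough cycling cells of the 2 resident fat lineages. There the 29 cycling stromal-like cells had 1750.1 CPM against 248 in the others, a ratio of 7.05 (5.69 to 8.72), and the 16 cycling endothelial-like cells had 1352 CPM against 297, a ratio of 4.56 (3.59 to 5.72).

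**Figure D1:**
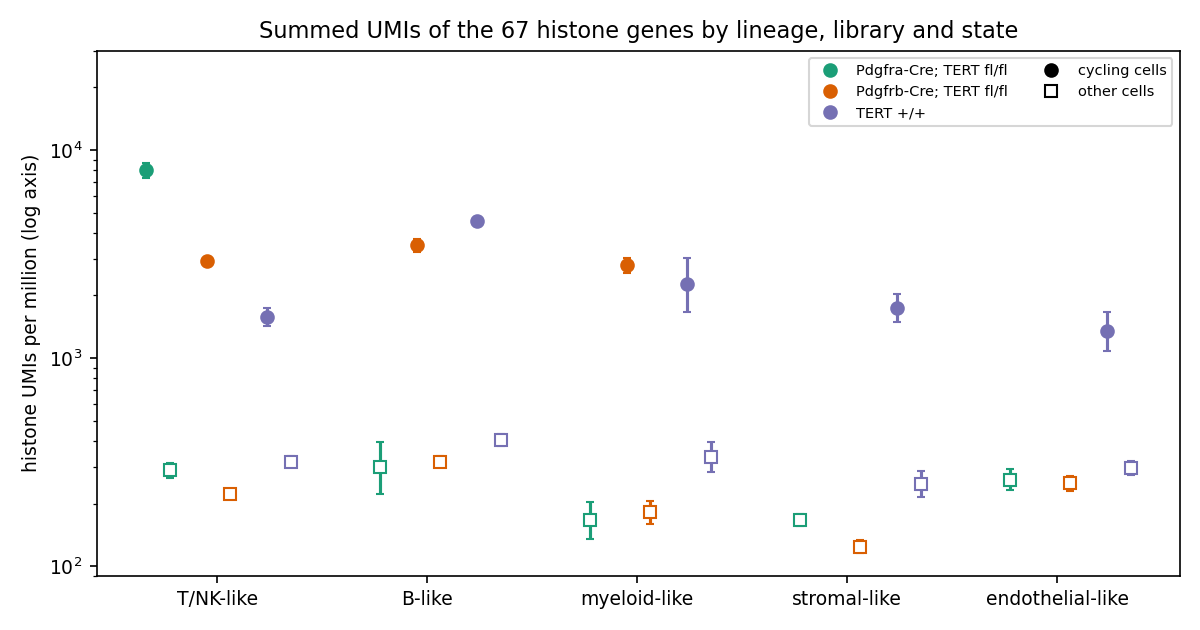
Summed CPM of the 67 histone genes (log axis) for 5 lineages, with cycling cells as filled circles left of the other cells as open squares, coloured by library. Bars are exact Poisson 95% intervals for counting error; groups with fewer than 5 cycling or 20 other cells are left out. Every filled circle lies above the open square of its own lineage and library.

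A few cells carried much of the signal. In the TERT +/+ library 2 of the 26 cycling T/NK-like cells held at least 50% of the group's histone UMIs, and the richest held 38.2% of them. The ratio was 3.27 without that cell, and 17 of the 26 cells lay above the pooled level of the other T/NK-like cells. In the Pdgfrb-Cre library 56 of 59 cycling T/NK-like cells lay above that level, with 11 cells holding at least 50% of the UMIs. The richest cell held 44.2% of the histone UMIs of the 6 Pdgfra-Cre T/NK-like cycling cells and 41.6% of those of the 25 TERT +/+ B-like ones, and the ratios without it were 20.5 and 7.37.

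Giving every cell the same weight, by thinning each to 2000 UMIs, changed the T/NK-like ratio mainly in the TERT +/+ library. Cycling cells then had 8583, 2975 and 886 CPM in the Pdgfra-Cre, Pdgfrb-Cre and TERT +/+ libraries, against 332, 224 and 355 CPM in the other cells. The ratios were 25.9, 13.3 and 2.498, after 0, 0 and 4 cycling cells and 23, 22 and 80 other cells with fewer UMIs were left out.

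The histone level climbed with the number of the 7 cycle transcripts detected. Cells with none had 268 CPM in the Pdgfra-Cre, 216 in the Pdgfrb-Cre and 323 in the TERT +/+ library, and cells with all 7 had 5710.2, 3356 and 4426 CPM in the same libraries. Next to the threshold, cells with exactly 3 had 566, 466 and 1038 CPM, and cells with exactly 2 had 405, 218 and 457 CPM in the Pdgfra-Cre, Pdgfrb-Cre and TERT +/+ libraries. The steps in between were not even: in the Pdgfrb-Cre library cells with 4 had 2268 CPM and cells with 5 had 771, and the only Pdgfra-Cre cell with 4 had 107 CPM. Cells with all 7 were also deeper, with median UMIs of 17493 (Pdgfra-Cre), 27101 (Pdgfrb-Cre) and 16447 (TERT +/+). Cells with none had 7224, 5441 and 3334 in the same order, and the part of depth was not tested.

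**Figure D2:**
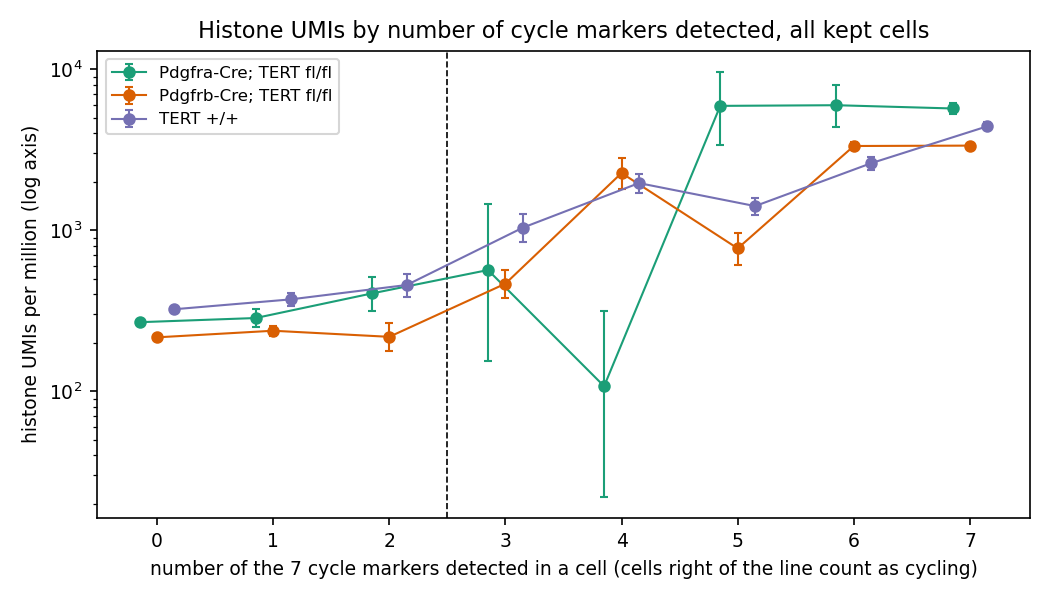
Histone CPM (log axis) against the number of the 7 cycle markers detected in a cell, for all kept cells of each library, with exact Poisson 95% intervals. Cells right of the dashed line count as cycling; levels are within 216 to 457 CPM up to 2 markers and 3356 CPM or more at 7 markers in each library.

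Cells were also counted by their histone RNA. After each cell was thinned to 2000 UMIs, 5 cells of the Pdgfra-Cre, 21 of the Pdgfrb-Cre and 8 of the TERT +/+ library had at least 10 histone UMIs. All 5, all 21 and 7 of the 8 met the rule for cycling cells, the exception being a neutrophil-like cell. At 5 or more histone UMIs the rule was met by 6 of 11 cells of the Pdgfra-Cre, 39 of 46 of the Pdgfrb-Cre and 32 of 45 of the TERT +/+ library. Of the cells that did not meet it, 5 of 5, 7 of 7 and 10 of 13 in those libraries had none of the 7 cycle transcripts detected.

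Whether single histone genes differed was tested with edgeR's quasi-likelihood test on the summed counts, with the library as a block and Benjamini-Hochberg adjustment over all genes. The Pdgfrb-Cre and TERT +/+ libraries, each with at least 10 cycling cells of the lineage, were the replicates. Each library gave only a cycling and an other sum, so edgeR takes the spread largely from all genes together. The p-values therefore do not measure how far a single gene differs between these libraries, which also differ in genotype. A gene can be called although its libraries disagree, as for Hist4h4 in B-like cells and Hist1h2bc in T/NK-like cells below. In T/NK-like cells 40 of the 67 histone genes had enough counts to be tested. Of these, 29 were higher in cycling cells and none was lower at an adjusted p under 0.05 (31 were higher and 0 lower at an unadjusted p under 0.05, and DESeq2 called 0 lower), beside 10.6% of all 10929 tested genes called higher and 11.5% called lower. The median log2 fold change was 2.57 over the 40 genes and -0.21 over all tested genes. Since a gene can be counted only through the cycling cells, the 29 genes with at least 20 UMIs in the other cells alone are also given. Of these, 20 were called higher, and their median log2 fold change was lower, at 2.07.

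In B-like cells 33 of 41 tested histone genes were higher and 0 lower by edgeR (35 higher and 0 lower at an unadjusted p under 0.05, and 0 lower by DESeq2), with a median log2 fold change of 3.24 against -0.19 over all genes (8.39% of 9026 genes called higher and 7.94% lower). Of the 24 with at least 20 UMIs in the other cells, 17 were called higher, and the median log2 fold change of the 24 was 2.43. Without the cycling cell with most histone UMIs in each library, 19 of 35 tested genes were called in B-like cells and 27 of 40 in T/NK-like cells. Over all genes, 561 of 8992 and 1117 of 10915 were called higher there, in the same order. In T/NK-like cells the other cells were also limited to those at least as deep as the lower quartile of cycling cells. The count was then 19 of 38 (629 of all 9502 genes called higher). It was 17 of 40 with DESeq2's Wald test, which gave 8 of the 40 no adjusted p (634 of all 10929). Without the library block it was 18 of 40 (257 of all 10929), and 20 of 41 in B-like cells (256 of all 9026). Calls over all genes thus fell too, from 1156 in the T/NK-like and 757 in the B-like main fit. A T/NK-like fit with all 3 libraries called 33 of 43 higher (10.7% of all genes called higher and 9.58% lower). It called 14 of 32 when the Pdgfrb-Cre library was left out of it (267 of all 9454 genes called higher).

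Markers of other cell types were summed beside these results. The 10 macrophage or monocyte markers summed to 28.1, 2.09 and 8.23 CPM in cycling T/NK-like cells of the Pdgfra-Cre, Pdgfrb-Cre and TERT +/+ libraries, with 8, 8 and 9 of them at 0, against 95.3, 23.7 and 123 CPM in the other T/NK-like cells. The 8 NK markers summed to 11749 CPM in the 6 cycling Pdgfra-Cre cells against 2869 in the others, and their part in that library's ratio was not tested. In cycling B-like cells the 9 B cell markers summed to 2322 (Pdgfrb-Cre) and 3176 CPM (TERT +/+), against 3915 and 5890 in the other B-like cells of those libraries. The 13 T cell markers summed to 66.1 (11 of them at 0) and 135 CPM (3 at 0) in cycling B-like cells of those libraries, against 39.3 and 87.7 CPM in the others, and the 6 plasma cell markers to 7268 (1 at 0) and 1342 CPM (2 at 0), against 333 and 488 CPM in the others. A grouping of the cells used 2000 variable genes, with histone and cell cycle genes among those left out. In it 9 of 11 (Pdgfrb-Cre) and 24 of 25 (TERT +/+) cycling B-like cells fell in 1 cluster. The cluster was led by Ighg2c, Igkc and Jchain, immunoglobulin genes and a plasma cell gene. That cluster held 5 of 880 and 18 of 618 of the other B-like cells of those libraries. It also held 4 of 6, 38 of 59 and 20 of 26 cycling T/NK-like cells of the Pdgfra-Cre, Pdgfrb-Cre and TERT +/+ libraries, and 24 of 676 other T/NK-like cells of the TERT +/+ library. Cycling and other cells of a lineage thus lay mostly in different clusters, and the part of these differences in the results was not tested.

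**Figure D3:**
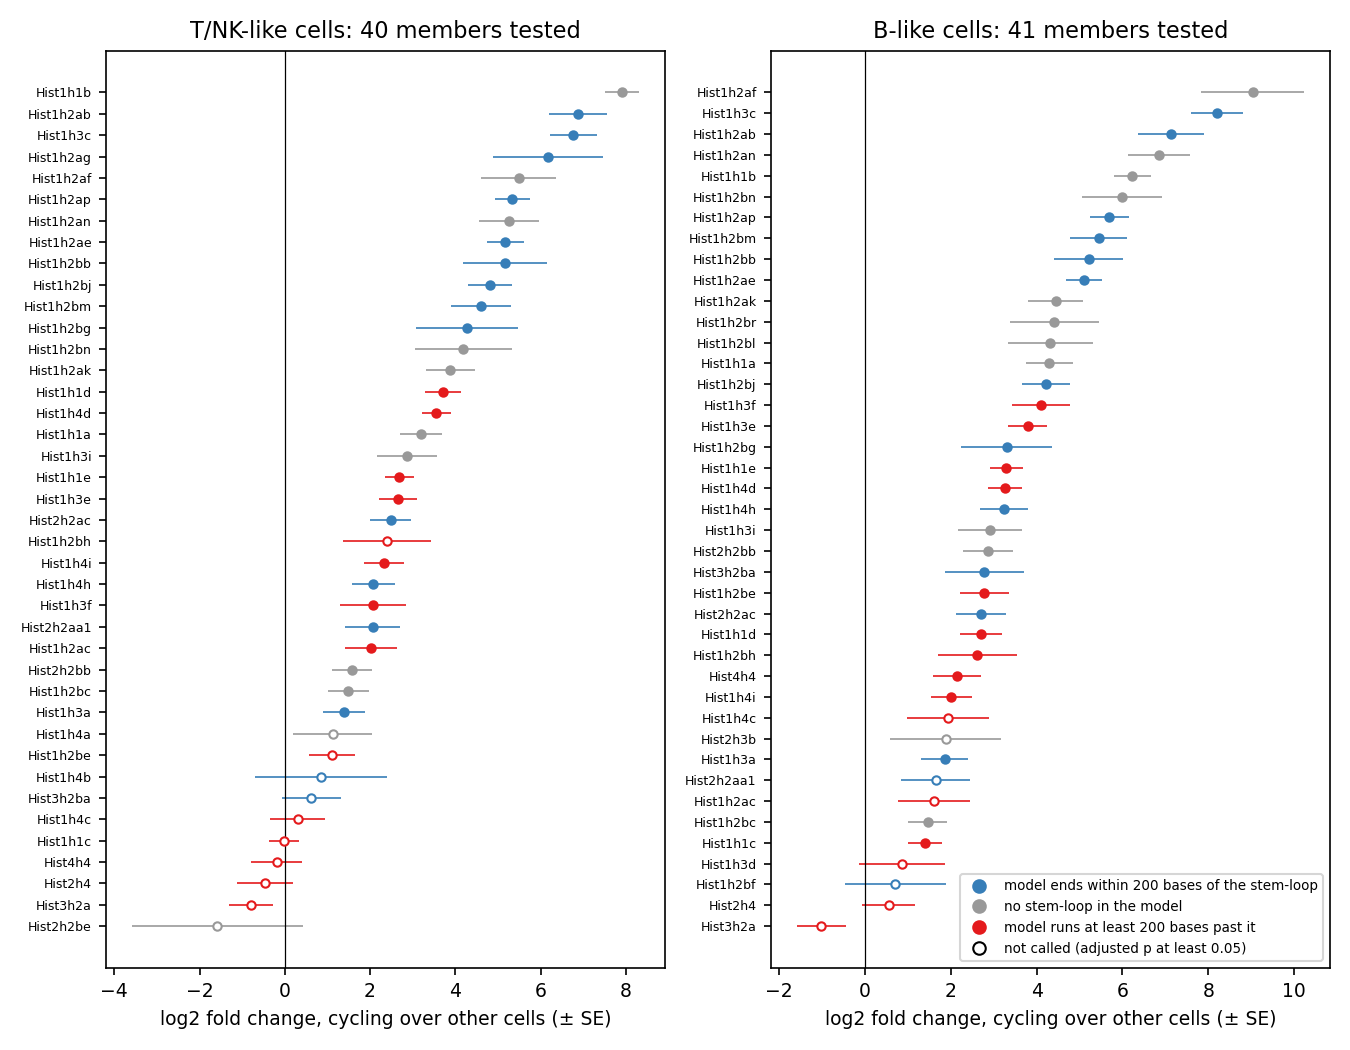
Log2 fold change of each tested histone gene between cycling and other cells (edgeR, horizontal bars are standard errors) in T/NK-like cells (left, 40 genes) and B-like cells (right, 41 genes), coloured by where the annotated transcript ends. Filled points are genes called higher at an adjusted p under 0.05; Hist3h2a lies left of 0 in both panels and was not called.

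Linker histones bind the DNA between nucleosomes, and their genes gave the widest range. Hist1h1b rose more than any other tested histone gene in T/NK-like cells. It had 912, 684 and 247 CPM in cycling T/NK-like cells of the Pdgfra-Cre, Pdgfrb-Cre and TERT +/+ libraries, against 1.54, 1.47 and 1.81 CPM in the other T/NK-like cells. Its log2 fold change was 7.92 ± 0.41 (SE, edgeR adjusted p = 1.24e-79) in T/NK-like and 6.23 ± 0.44 (adjusted p = 1.37e-41) in B-like cells. Its lowest cycling value, 247 CPM, lay far above its highest other value, 1.81 CPM. In B-like cells Hist1h1b had 642 and 384 CPM in cycling cells of the Pdgfrb-Cre and TERT +/+ libraries, against 4.30 and 7.83 CPM in the other cells.

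Hist1h1c, the linker histone gene with the most UMIs in all, behaved differently. In T/NK-like cells it had 154, 97.6 and 49.4 CPM in cycling cells of the Pdgfra-Cre, Pdgfrb-Cre and TERT +/+ libraries, against 40.7, 60.3 and 60.8 CPM in the other cells. The ratios were 3.80 (1.82 to 7.17), 1.62 (1.34 to 1.94) and 0.813 (0.414 to 1.45), so the libraries lay on both sides of 1. Its log2 fold change in T/NK-like cells was -0.01 ± 0.35 (edgeR adjusted p = 0.992), whereas in B-like cells it was 1.40 ± 0.40 (adjusted p = 0.0054). That B-like call was lost without the cell with most histone UMIs of each library (log2 fold change 0.72, adjusted p = 0.370), with DESeq2 (adjusted p = 0.0769) and without the library block (adjusted p = 0.102), and the difference between the lineages was not tested. The B-like levels were 118 and 138 CPM in cycling cells of the Pdgfrb-Cre and TERT +/+ libraries, against 41.5 and 46.2 CPM in the others.

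Hist1h1e, another broadly used linker histone gene, had 659.7, 269 and 185 CPM in cycling T/NK-like cells of the Pdgfra-Cre, Pdgfrb-Cre and TERT +/+ libraries, against 24.2, 16.7 and 50.9 CPM in the others. It rose by a log2 fold change of 2.69 in T/NK-like and 3.29 in B-like cells. All of the last 300 bases of its annotated transcript are shared with other gene models, among them the long Hist1h2be transcript, so its counts may be split. Hist1h1d had 112, 54.4 and 94.7 CPM in cycling T/NK-like cells of the Pdgfra-Cre, Pdgfrb-Cre and TERT +/+ libraries, against 1.54, 1.73 and 10.9 CPM in the others. It rose by 3.71 in T/NK-like and 2.71 in B-like cells. The B-like call was lost without the library block (edgeR adjusted p = 0.120). Hist1h1t, the testis linker histone, had 1 UMI in all.

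As a result the make-up of the linker histone RNA differed between cycling and other cells. Hist1h1b was 49.2%, 59.9% and 40.0% of the linker histone UMIs in cycling T/NK-like cells of the Pdgfra-Cre, Pdgfrb-Cre and TERT +/+ libraries, against 2.19%, 1.79% and 1.38% in the others. Hist1h1c was 8.33%, 8.55% and 8.0% in cycling T/NK-like cells, against 57.7%, 73.5% and 46.2% in the others. B-like cells had 49.5% and 35.7% Hist1h1b in cycling cells of the Pdgfrb-Cre and TERT +/+ libraries, against 5.49% and 6.10% in the others. In stromal-like cells of the TERT +/+ library Hist1h1b was 24.6% of the 57 UMIs from the linker histone genes other than Hist1h1t in cycling cells, against 5.0% of 80 in the others.

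**Figure D4:**
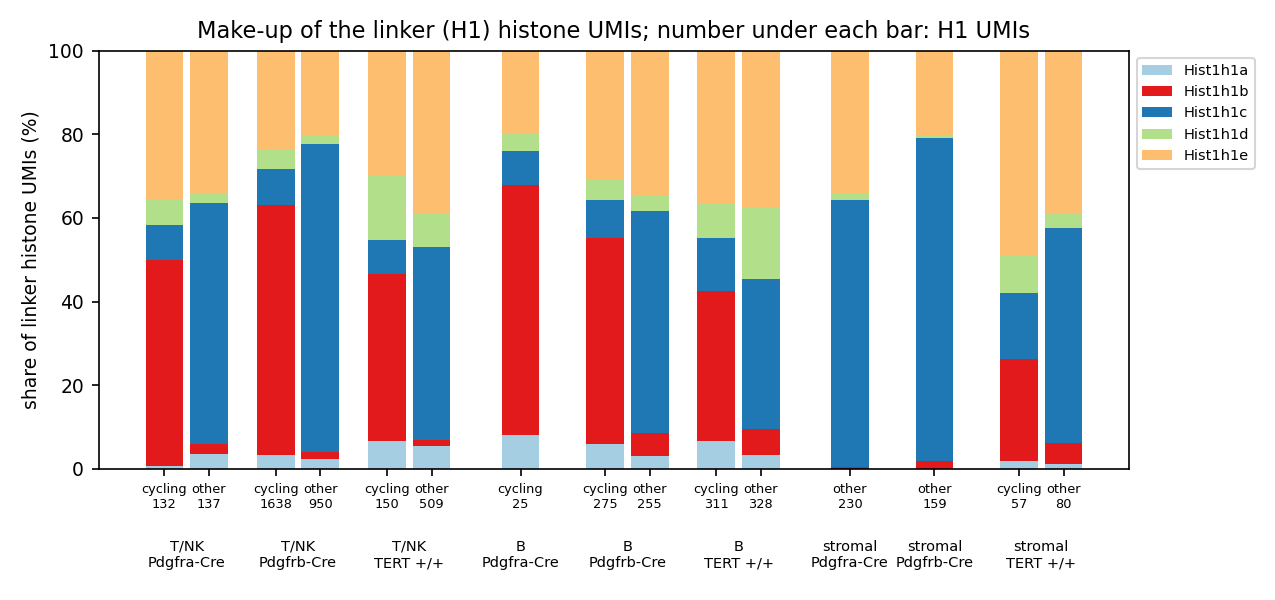
Share of the linker histone UMIs from each of 5 genes, in percent, by lineage, library and state; the number under each bar is the count of linker histone UMIs behind it. Hist1h1b (red) makes up 24.6% to 60.0% of each cycling bar and Hist1h1c (dark blue) 36.0% to 77.4% of each bar of other cells.

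Among the H2A genes, whose proteins form the nucleosome core with H2B, 10 of 11 tested genes rose in T/NK-like and 7 of 10 in B-like cells. Of all genes 10.6% and 8.39% were called higher in the same fits. These counts by class, here and below, can include genes tested only through their UMIs in cycling cells, and differences between classes were not tested. Hist1h2ae had 1193, 267 and 70.0 CPM in cycling T/NK-like cells of the Pdgfra-Cre, Pdgfrb-Cre and TERT +/+ libraries, against 9.27, 2.16 and 6.46 CPM in the others. Hist1h2ap had 1053, 195 and 169 CPM in cycling cells of those libraries, against 9.78, 2.25 and 6.21 CPM in the others. Every cycling value of both genes lay above every other value. Hist1h2ae rose by 5.17 in T/NK-like and 5.10 in B-like cells, and Hist1h2ap by 5.33 and 5.69. All of the end of the Hist1h2ap transcript is shared with other H2A genes, so reads of near-identical copies cannot be assigned with certainty.

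Hist1h2ab and Hist1h2af were nearly silent outside the cycle. Hist1h2ab had 140.4, 53.7 and 28.8 CPM in cycling T/NK-like cells of the Pdgfra-Cre, Pdgfrb-Cre and TERT +/+ libraries, against 0, 1 and 3 UMIs in the others. The log2 fold change of Hist1h2ab was 6.89 ± 0.68 (edgeR adjusted p = 8.43e-22) in T/NK-like and 7.14 ± 0.76 (adjusted p = 2.10e-18) in B-like cells. Hist1h2af had 8 and 16 UMIs in cycling B-like cells of the Pdgfrb-Cre and TERT +/+ libraries, 37.8 and 55.4 CPM, against 0 in the others of both libraries. Set against a limit of 3 counts per library it was at least 40.9-fold and 47.1-fold higher (its fitted log2 fold change of 9.03 depends on a prior count).

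Hist2h2ac, of the cluster on chromosome 3, had 140.4, 90.0 and 4.12 CPM in cycling T/NK-like cells of the Pdgfra-Cre, Pdgfrb-Cre and TERT +/+ libraries, against 12.4, 9.25 and 3.62 CPM in the others. It rose by 2.49 in T/NK-like and 2.71 in B-like cells, but rested on 1 UMI in cycling T/NK-like cells of the TERT +/+ library. The T/NK-like call was lost with DESeq2 (adjusted p = 0.0627) and without the library block (0.123), and the B-like call without the library block (0.185). Hist3h2a, of the pair on chromosome 11, did not follow the class. It had 0, 14.6 and 4.12 CPM in cycling T/NK-like cells of the Pdgfra-Cre, Pdgfrb-Cre and TERT +/+ libraries, against 13.9, 16.9 and 13.4 CPM in the others. Its log2 fold change was -0.79 ± 0.52 (edgeR adjusted p = 0.293) in T/NK-like and -1.02 ± 0.57 (adjusted p = 0.239) in B-like cells. Cycling B-like cells had 28.3 and 13.8 CPM in the Pdgfrb-Cre and TERT +/+ libraries, against 59.0 and 21.5 CPM in the others.

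Of the H2B genes, 7 of 11 tested rose in T/NK-like and 12 of 13 in B-like cells, beside 10.6% and 8.39% of all genes. Hist1h2bc was by far the H2B gene with the most UMIs, 1016, 1152 and 370 in the Pdgfra-Cre, Pdgfrb-Cre and TERT +/+ libraries. Its annotated model spans chr13:23684199-23692908 on the plus strand and holds no stem-loop. In cycling T/NK-like cells it had 56.1, 53.0 and 0 CPM in those libraries, against 4.12, 8.82 and 8.79 CPM in the others. It was called higher with a log2 fold change of 1.49 ± 0.47 (edgeR adjusted p = 0.0108), although its 34 UMIs in the other TERT +/+ cells had no counterpart in the 26 cycling ones. With deep other cells only its adjusted p was 0.674, and it was 0.799 with DESeq2, 0.316 without the library block and 0.225 without the cell with most histone UMIs. Hist2h2bb, with a log2 fold change of 1.58, and Hist1h3a of the H3 class, with 1.40, were the other small changes called in T/NK-like cells. Both calls were lost with DESeq2 (adjusted p = 0.398 and 0.314), without the library block (0.249 and 0.238) and with deep other cells only (0.187 and 0.0986).

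Hist2h2bb had 112, 35.6 and 12.3 CPM in cycling T/NK-like cells of the Pdgfra-Cre, Pdgfrb-Cre and TERT +/+ libraries, against 11.3, 5.62 and 11.6 CPM in the others. Hist1h3a had 42.1, 23.0 and 24.7 CPM in cycling T/NK-like cells, against 7.21, 5.79 and 10.1 CPM in the others. The smallest changes called in B-like cells were those of Hist1h1c (1.40), Hist1h2bc (1.46) and Hist1h3a (1.86). The calls of Hist1h2bc and Hist1h3a were also lost with DESeq2 (adjusted p = 0.180 and 0.269), without the library block (0.187 and 0.156) and without the cell with most histone UMIs (0.0804 and 0.0795).

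Histone H3 carries many of the marks of chromatin states. All 5 of its tested genes rose in T/NK-like and 5 of 7 in B-like cells, beside 10.6% and 8.39% of all genes. Hist1h3c had 814, 144 and 57.6 CPM in cycling T/NK-like cells of the Pdgfra-Cre, Pdgfrb-Cre and TERT +/+ libraries, against 0.515, 0.432 and 1.55 CPM in the others. The gene rose by a log2 fold change of 6.77 ± 0.54 (edgeR adjusted p = 8.87e-33) in T/NK-like and 8.20 ± 0.61 (adjusted p = 2.49e-38) in B-like cells. In cycling B-like cells it had 175 and 218 CPM in the Pdgfrb-Cre and TERT +/+ libraries, against 0.307 and 0.783 CPM in the others, which is 1 and 2 UMIs. Hist1h3e had 126, 60.7 and 32.9 CPM in cycling T/NK-like cells of the Pdgfra-Cre, Pdgfrb-Cre and TERT +/+ libraries, against 8.24, 6.14 and 6.46 CPM in the others. It rose by 2.65 in T/NK-like and 3.79 in B-like cells, and its transcript end is shared in full with Hist1h3f.

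The H4 genes gave the lowest share of calls in T/NK-like cells, 3 of 8 tested, and 4 of 6 in B-like cells. Of all genes 10.6% and 8.39% were called higher in these lineages. Hist1h4d had 772, 294 and 206 CPM in cycling T/NK-like cells of the Pdgfra-Cre, Pdgfrb-Cre and TERT +/+ libraries, against 43.3, 17.5 and 16.3 CPM in the others. It rose by 3.55 in T/NK-like and 3.26 in B-like cells, and none of its transcript end was shared. Hist1h4i had 14.0, 69.0 and 8.23 CPM in cycling T/NK-like cells of those libraries, against 5.66, 6.57 and 7.24 CPM in the others. Only the Pdgfrb-Cre library set it clearly apart, with 99 UMIs behind its cycling value, beside 1 in cycling cells of the Pdgfra-Cre and 2 in those of the TERT +/+ library. It rose by 2.32 in T/NK-like and 2.01 in B-like cells. Both calls were lost with DESeq2 (adjusted p = 0.115 and 0.0601) and without the library block (0.0978 and 0.0591). The B-like call was also lost without the cell with most histone UMIs (0.134).

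Hist1h4h had 126, 30.7 and 20.6 CPM in cycling T/NK-like cells of the Pdgfra-Cre, Pdgfrb-Cre and TERT +/+ libraries, against 7.72, 4.06 and 7.50 CPM in the others, and rose by 2.08. The T/NK-like call of Hist1h4h was lost with DESeq2 (adjusted p = 0.105), with deep other cells only (0.0539) and without the library block. Hist4h4, alone on chromosome 6, had 42.1, 5.58 and 20.6 CPM in cycling T/NK-like cells, against 5.15, 6.22 and 13.7 CPM in the others. Its log2 fold change was -0.19 ± 0.59 (edgeR adjusted p = 0.870) in T/NK-like and 2.15 ± 0.56 (adjusted p = 0.00173) in B-like cells. The B-like call came from 1 library: cycling B-like cells had 0 CPM in the Pdgfrb-Cre and 125 CPM in the TERT +/+ library, against 5.23 and 14.5 CPM in the others. That call was lost with DESeq2 (adjusted p = 0.484), without the library block (0.212) and without the cell with most histone UMIs (0.525).

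In myeloid-like cells no library reached 10 cycling cells, so a fit of the Pdgfrb-Cre and TERT +/+ libraries with 8 cycling cells each was added after the data were seen. It called 7 of 11 tested histone genes higher by edgeR (0.468% of all 7268 genes called higher and 0.482% lower; 9 of 11 histone genes higher and 0 lower at an unadjusted p under 0.05), with log2 fold changes of 7.08 for Hist1h1b, 7.02 for Hist1h3c, 6.65 for Hist1h2ap, 5.09 for Hist1h2ae, 5.04 for Hist2h2ac, 4.38 for Hist1h4d and 3.36 for Hist1h1e. Hist1h1c, with 1.95, Hist1h2bc, Hist3h2a and Hist1h4i were tested and not called. No limit on UMIs in the other cells alone was set in this fit, so genes could be tested through the cycling cells only. The 8 cycling myeloid-like cells held 550 histone UMIs in the Pdgfrb-Cre and 46 in the TERT +/+ library, so most of these counts came from the former. The stromal-like cells could not be fitted, since only the TERT +/+ library had enough cycling ones. In those 29 cells Hist1h2ap had 20 UMIs against 2 in the 216 others, and Hist1h3c had 13 against 1.

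The fold changes were also set beside where the annotated transcript ends. In T/NK-like cells the median log2 fold change was 4.61 over 15 tested genes ending near it, with 13 called higher, and 2.05 over 14 genes running past it, with 7 called higher. It was 3.19 over the 11 tested genes with no annotated stem-loop, with 9 called higher. In B-like cells the medians were 3.76 (12 of 14 called), 2.15 (10 of 15 called) and 4.37 (11 of 12 called) in the same order. Many genes with short transcripts were tested only through their counts in cycling cells. Over genes with at least 20 UMIs in the other cells alone, the medians in T/NK-like cells were 2.28 (7 of 8 called) for genes ending near the stem-loop and 2.02 (7 of 13) for genes running past it. In B-like cells they were 2.71 (5 of 7) and 2.01 (8 of 13). The gap between the medians was smaller among these genes, a limit that was set after the data were seen. Genes with short transcripts also had fewer UMIs, with a median of 62.5 over the 26 genes against 343 over the 18 long ones, and shared more of their ends with other genes, a median of 61.4% against 0%. The difference between these groups of genes was not tested, and which transcript form was captured cannot be read from gene counts.

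The same split showed in the make-up of the histone RNA. Genes with a long annotated transcript gave 27.2%, 32.2% and 42.1% of the histone UMIs of cycling T/NK-like cells in the Pdgfra-Cre, Pdgfrb-Cre and TERT +/+ libraries, against 61.0%, 71.5% and 67.2% in the others. In B-like cells they gave 33.6% and 36.4% in cycling cells of the Pdgfrb-Cre and TERT +/+ libraries, against 72.6% and 60.9% in the others. The share was lower in cycling cells in all 9 pairs of groups compared, and the smallest gap was in TERT +/+ stromal-like cells, with 50.3% against 62.6%.

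**Figure D5:**
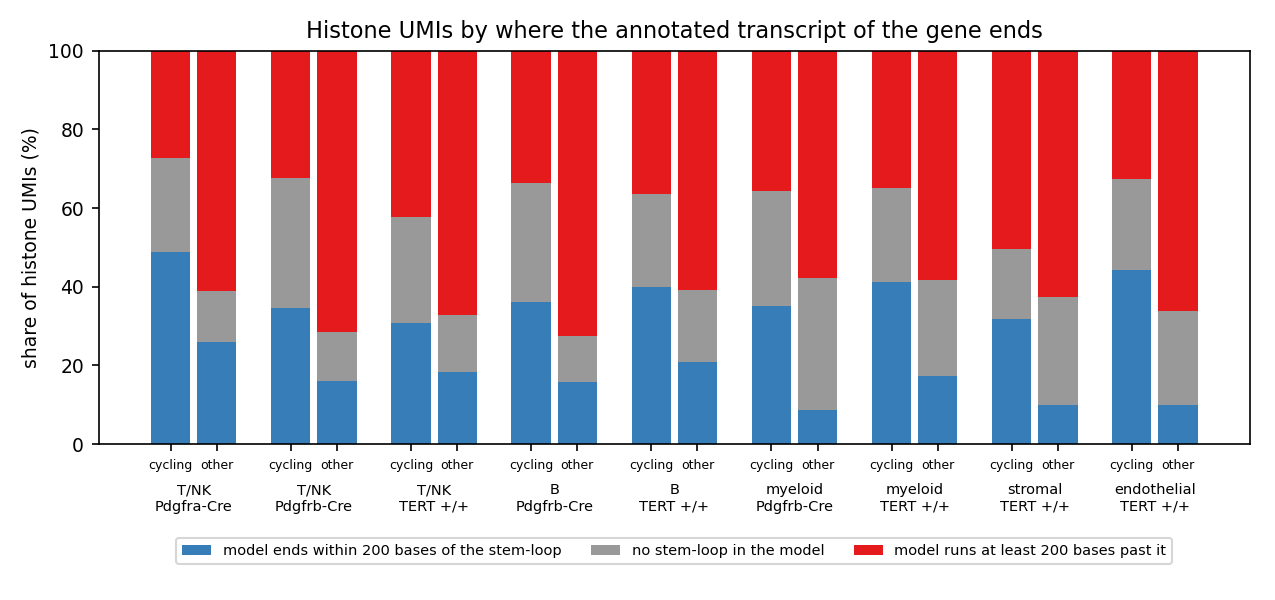
Share of the histone UMIs, in percent, from genes grouped by where their annotated transcript ends, with cycling cells left of the other cells for each lineage and library with at least 5 cycling cells. The red part, genes whose transcript runs at least 200 bases past the stem-loop, is smaller in the cycling bar of each of the 9 pairs.

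Of the 67 genes, 12 pairs lie head to head with their starts at most 400 bases apart, all of them an H2A beside an H2B gene, with gaps of 175 to 305 bases. Both genes were tested in T/NK-like cells in 5 of these pairs. Hist1h2ae and Hist1h2bg, 175 bases apart, had log2 fold changes of 5.17 and 4.27, and Hist1h2ag and Hist1h2bj had 6.17 and 4.81. Hist1h2ak and Hist1h2bn had 3.89 and 4.19, and Hist1h2ac and Hist1h2bc 2.02 and 1.49. The exception was Hist2h2ac with 2.49 beside Hist2h2be with -1.58 ± 2.01, which was not called (edgeR adjusted p = 0.642). Paired genes can differ in counts all the same: Hist1h2ae had 1128 UMIs and Hist1h2bg 74.

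Promoters of 61 of the 67 genes were found in RefSeq (GRCm38.p6), as 250 bases before to 50 after the gene start, and searched on both strands. The letters CCAAT were in 85.2% of them against 37.9% of all 27025 promoters, and in every H1, H2A, H2B and H3 promoter but in 3 of 12 H4 promoters. TATAAA was in 55.7% against 14.2%, and ATTTGCAT, the octamer, in 21.3% against 1.75% of all promoters. The octamer was in 7 of 18 H2A and 6 of 16 H2B promoters and in none of the H1, H3 or H4 promoters. The 250 bases before the start are shown for Hist1h1b, which rose most in T/NK-like cells, for Hist1h2bg, whose window also holds the start of Hist1h2ae, and for Hist3h2a, which was not called. They were chosen after their values were seen. Capitals mark CCAAT and also TATAAA and the octamer on either strand, so that ATTGG stands for the first and ATGCAAAT for the last read on the other strand.

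Hist1h1b: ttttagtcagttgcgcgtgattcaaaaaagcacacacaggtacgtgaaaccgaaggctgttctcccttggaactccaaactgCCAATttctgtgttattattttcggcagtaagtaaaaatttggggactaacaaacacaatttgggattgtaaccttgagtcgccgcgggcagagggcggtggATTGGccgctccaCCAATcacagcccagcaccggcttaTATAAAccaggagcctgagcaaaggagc
Hist1h2bg: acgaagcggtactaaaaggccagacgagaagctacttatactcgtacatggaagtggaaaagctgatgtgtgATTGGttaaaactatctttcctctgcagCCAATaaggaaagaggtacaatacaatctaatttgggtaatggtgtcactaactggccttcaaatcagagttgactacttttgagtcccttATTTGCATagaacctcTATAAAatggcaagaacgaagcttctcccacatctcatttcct
Hist3h2a: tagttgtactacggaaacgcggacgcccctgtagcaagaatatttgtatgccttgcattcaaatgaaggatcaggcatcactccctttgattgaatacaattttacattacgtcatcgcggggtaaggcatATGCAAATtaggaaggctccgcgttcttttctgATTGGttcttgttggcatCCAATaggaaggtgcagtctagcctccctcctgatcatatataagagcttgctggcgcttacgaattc

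These windows are chr13:21780626-21780875 on the minus strand for Hist1h1b, chr13:23571150-23571399 on the plus strand for Hist1h2bg and chr11:58954435-58954684 on the plus strand for Hist3h2a. Hist3h2a holds CCAAT and the octamer, like many H2A promoters, and no TATAAA in this window.

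Position within the cycle was described by ordering cycling cells on the share of S phase transcripts among S and G2/M transcripts, with the 7 marker genes left out. Among the 59 cycling T/NK-like cells of the Pdgfrb-Cre library, histone CPM was 2387 (2258 to 2522) in the 19 S-leaning cells, 3686 (3527 to 3851) in the 20 cells between and 2605 (2439 to 2780) in the 20 G2/M-leaning cells. Among all 132 cycling cells of the TERT +/+ library it was 1158, 3517 and 3672 CPM in groups of 44 cells from the S-leaning to the G2/M-leaning end, with lineages mixed. In the Pdgfrb-Cre T/NK-like cells Hist1h1b had 559, 938 and 481 CPM and Hist1h2ae 194, 379 and 205 CPM in the S-leaning, middle and G2/M-leaning cells. Hist1h1c had 46.6, 103 and 168 CPM in the same order, and in all cycling TERT +/+ cells 41.3, 107 and 162 CPM. These groups are ranges of a score and are given as values with no test.

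Genes that act with the histones were counted in the same fits. The list of replacement histones had 6 of 10 tested members higher and 1 lower in T/NK-like cells (median log2 fold change 1.49), beside 10.6% of all genes called higher and 11.5% lower. In B-like cells 5 of 10 were higher and 0 lower (median 1.57), beside 8.39% and 7.94% of all genes. H1fx rose by 4.90 in T/NK-like and 7.06 in B-like cells, H2afx, the variant phosphorylated at DNA breaks, by 1.59 and 3.44, and H2afz by 1.61 and 2.98. H3f3b, a replacement H3 gene, fell by 0.50 in T/NK-like cells (edgeR adjusted p = 0.0081). H1f0, a linker histone of resting cells, rose by 1.55 in T/NK-like and 3.22 in B-like cells.

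The list of histone chaperones and factors of histone deposition had 9 of 12 members higher in T/NK-like and 10 of 12 in B-like cells. None was lower, the medians were 2.13 and 2.23, and 10.6% and 8.39% of all genes were called higher. Chaf1a, of the assembly factor at replication forks, rose by 4.49 and 4.02, Asf1b by 4.34 and 3.82, and Uhrf1, which maintains DNA methylation, by 4.10 and 4.56 in T/NK-like and B-like cells. Slbp also stands in the S phase list and Cenpa in both the replacement and the G2/M list. Of the list for histone mRNA processing and decay 3 of 15 tested genes were higher in T/NK-like and 2 of 15 in B-like cells, with medians of 0.52 and 0.55, where 10.6% and 8.39% of all genes were called higher. Slbp rose by 0.97 ± 0.29 (edgeR adjusted p = 0.0067) in T/NK-like and 1.17 ± 0.36 (adjusted p = 0.0106) in B-like cells, and Cpsf2, of the cleavage complex, by 1.17 and 1.42. Eri1, a nuclease that trims histone mRNA ends, rose by 0.92 in T/NK-like cells.

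The S phase list had 27 of 28 members higher in T/NK-like and 22 of 25 in B-like cells, and the G2/M list 32 of 33 and 25 of 26. These cells were picked by cycle transcripts, so the counts only describe how far the choice of cells reached. Cdc6, Tyms and Cdc45 rose most among S phase genes in T/NK-like cells, by 5.26, 4.73 and 4.30, and Cdc45, Tyms and Clspn in B-like cells, by 5.93, 4.98 and 4.16. Hmmr, Cenpf and Aurkb led the G2/M list in T/NK-like cells, with 8.75, 7.44 and 7.40, and Hmmr, Kif11 and Ccna2 in B-like cells, with 10.09, 8.39 and 7.40.

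Outside the cycle the level of histone RNA and the genes behind it differed between lineages. The other B-like cells had 300, 317 and 404 histone CPM in the Pdgfra-Cre, Pdgfrb-Cre and TERT +/+ libraries, above the other stromal-like cells, with 167, 124 and 248 CPM, in each library. Hist1h2bc ran the other way, with 14.4 and 32.9 CPM in the other B-like cells of the Pdgfrb-Cre and TERT +/+ libraries. It had 58.7, 68.5 and 43.1 CPM in the other stromal-like cells and 81.6, 105 and 40.7 CPM in the other endothelial-like cells of the Pdgfra-Cre, Pdgfrb-Cre and TERT +/+ libraries, against 4.12, 8.82 and 8.79 CPM in the other T/NK-like cells. The 93 mesothelial-like cells, all of the Pdgfra-Cre library, had 599 histone CPM (561 to 639), of which Hist1h2bc gave 289 and Hist1h1c 139 CPM. Their Hist1h2bc level lay above that of every other lineage listed here, whose values do not overlap with it.

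H2B genes made up 39.6%, 57.2% and 22.6% of the histone UMIs in the other stromal-like cells of the Pdgfra-Cre, Pdgfrb-Cre and TERT +/+ libraries. In cycling stromal-like cells of the TERT +/+ library they were 5.99% of 167 histone UMIs, against those 22.6% in the others. The summed H2B level was 105 CPM (10 UMIs) in these cycling cells against 56.2 CPM in the others, and Hist1h2bc had 10.5 CPM (1 UMI) against 43.1 CPM.

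Between genotypes, in cells outside the cycle, few histone genes passed a 2-fold difference among those with at least 10 CPM in either library (computed with 10 CPM added on both sides), and with 1 library each there is no test. In T/NK-like cells 1 of 9 measured genes was lower and 0 higher in the Pdgfrb-Cre library (3.97% and 4.57% of all genes), and 1 of 10 was higher and 0 lower in the Pdgfra-Cre library (4.99% and 2.07%). These were Hist1h1e, with 16.7 CPM in the Pdgfrb-Cre against 50.9 in the TERT +/+ library, and Hist1h4d, with 43.3 CPM in the Pdgfra-Cre against 16.3 in the TERT +/+ library. Hist1h1e was also past that limit in stromal-like cells, with 13.7 CPM in the Pdgfra-Cre and 5.26 CPM in the Pdgfrb-Cre library against 40.5 CPM in the TERT +/+ library. It was lower than in TERT +/+ in all 7 comparisons of a lineage made, with ratios from 0.130 to 0.780. Hist1h1c was also lower in all 7, with ratios from 0.377 to 0.993. The median log2 ratio of the measured histone genes lay between -0.85 and -0.09 in the 7 comparisons, beside -0.09 to 0.15 over all genes. How many of all genes were lower in all 7 was not counted. These comparisons share the TERT +/+ cells, and that library was shallower per stromal-like cell outside the cycle, the median being 9694 UMIs in the Pdgfra-Cre, 10521 in the Pdgfrb-Cre and 1565 in the TERT +/+ library; its part in these differences was not tested.

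In stromal-like cells 1 of 5 measured genes was lower and 0 higher in the Pdgfra-Cre library (5.35% and 7.21% of all genes), and 2 of 5 were lower and 0 higher in the Pdgfrb-Cre library (3.39% and 5.94%), the second gene being Hist1h1c with 20.2 CPM in the Pdgfrb-Cre against 53.6 CPM in the TERT +/+ library. In B-like cells of the Pdgfrb-Cre library 1 of 13 was higher (4.96% of all genes), Hist3h2a with 59.0 CPM against 21.5 CPM in the TERT +/+ library. There 1 of 13 was lower (3.76%), Hist1h1d with 3.07 CPM against 21.9 CPM. In endothelial-like cells 1 of 6 was higher and 0 lower in the Pdgfrb-Cre library (3.56% and 1.87%), Hist1h2bc with 105 CPM against 40.7 CPM in the TERT +/+ library. In the Pdgfra-Cre library 1 of 6 was lower and 0 higher (2.22% and 3.31%), Hist2h2bb with 1.77 CPM, which is 2 UMIs, against 14.2 CPM in the TERT +/+ library.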

How the data were processed

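The deposited files hold UMI counts per gene and cell barcode for 3 libraries, which the authors made with Cell Ranger 3.1.0, STAR 2.6 and build mm10, per the submitters' processing notes; the annotation release is not given in the sources used here. Barcodes below 500 detected genes, or with over 15% of their UMIs from mitochondrial genes, were dropped. Doublets (0.8% per 1000 barcodes) were left out with scanpy 1.11.5. A cell took a lineage when it had at least 3 of that lineage's markers and 2 more than of any other. Counts were summed by library, lineage and state. Genes with at least 20 UMIs over all sums of a fit were tested with edgeR 4.0.16 (quasi-likelihood, TMM) in R 4.3.3. Each library holds both states, so it was the block that pairs them. The tests were checked on simulated data with known changes. DESeq2 1.42.0, other filters, cell choices and depth limits were tried as alternatives. Values were worked out with Python 3.11.15, numpy 2.4.6, scipy 1.17.1 and pandas 2.3.3. CPM intervals are exact Poisson and share intervals Clopper-Pearson, at 95%.

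Values in every library are given for the 15 histone genes with most UMIs. In each fit the called histone genes with the 3 largest and 3 smallest changes are named too, and in each other list the 3 called genes with the largest changes and Slbp. The histone genes, the lists and this rule were chosen with earlier results of these data known. Where the stromal-like and myeloid-like cells lacked enough cycling cells, the planned fits were not made. Sequences come from GENCODE M21 (GRCm38) and RefSeq (GRCm38.p6).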

Additional observations from a re-analysis of the deposited data

How the results depend on the processing

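In T/NK-like cells 29 of 40 tested histone genes were called higher. The count moved by more than 1.5 times under 4 settings: 17 with DESeq2's Wald test (8 had no adjusted p), 18 with no replicate block (the library that pairs the states), 19 with deep other cells only and, in an added fit of 3 libraries, 14 without Pdgfrb-Cre, where leaving out one library gave 14 to 30. In B-like cells 33 of 41 were called, against 20 with no replicate block and 19 without the cell with most histone UMIs. Over all genes the calls of higher fell as well. In T/NK-like cells they went from 1156 to 634 with DESeq2, 257 with no replicate block and 629 with deep other cells. With 3 libraries they went from 1197 to 267 without Pdgfrb-Cre. In B-like cells they went from 757 to 256 and 561 under the settings named. Hist1h1c, not called in T/NK-like cells, turned to a positive log2 fold change of 0.038 with no replicate block, 0.22 with at least 4 markers, 0.072 under the stricter cell filter, 0.075 with deep other cells, 0.39 with 3 libraries, 0.27 without Pdgfrb-Cre and 0.82 without TERT +/+. Hist4h4 turned to 0.45, 0.36, 0.97 and 0.34 with deep other cells, 3 libraries, without Pdgfrb-Cre and without TERT +/+. The cause was not tested. Of the other log2 fold changes, 373 kept their direction and side of the threshold and 47 lost the call. The ratios of cycling to other cells stayed above 1 under each setting run, between 2.27 (T/NK-like, TERT +/+, lineage from clusters) and 39.1 (deep other cells only), while 27 of 68 moved past their counting interval. Dropping a library from a fit of 2 leaves no residual degrees of freedom, so no test was made. The stricter cell filter in B-like cells and the lineage from clusters in T/NK-like and B-like cells could not be fitted. Depth limits genes with few UMIs: 11 of the 67 had fewer than 20.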
